A study of Mus musculus with 6 samples.

Results

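The genes described here are the protein_coding genes of chromosomes 1 to 19 whose annotated body, from transcription start site (TSS) to transcription termination site (TTS), spans 300 kb or more in the mouse genome build mm9. They number 503 of 21418 protein_coding genes, out of 34653 annotated genes of all types on these chromosomes, and were chosen by length alone. They were compared with the 4770 protein_coding genes of 30 to 100 kb. The very long genes had a median length of 439 kb, 188 reached 500 kb and 48 reached 1 Mb, and together they covered 11.8% of the called autosomal bases, against 10.8% for the genes of 30 to 100 kb. Beside the limit, the log2 H4K5ac-ChIP to IgG-IP ratio differed widely from gene to gene. Just inside lay Pam (301 kb) with 0.73 in FC and 0.65 in CON, Nxph1 (301 kb) with -0.95 in FC and -0.95 in CON and Cntn3 (301 kb) with 0.13 in FC and 0.19 in CON. Just outside lay Jazf1 (299.8 kb) with 0.65 in FC and 0.64 in CON, Pde1c (299.8 kb) with -0.27 in FC and -0.37 in CON and Akap13 (299 kb) with 0.43 in FC and 0.46 in CON. The span of a gene joins all its transcripts, and in 11 of the 503 genes, Pam among them (275 kb), no single transcript reached 300 kb.

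Acetylation of histone H4 at lysine 5 (H4K5ac) was measured by chromatin immunoprecipitation and sequencing in hippocampus of C57/BL6 mice aged 6 months. Mice of the FC group received a foot-shock in a training context on successive days and were killed within an hour of a memory test, and the control group (CON) went through the same handling and contexts without a shock. Each group is represented by 1 H4K5ac-ChIP library, 1 library from a mock immunoprecipitation with IgG (IgG-IP) and 1 library of unprecipitated chromatin (input). The methods describe several hippocampal samples per group, cross-linked one by one, and a pooling of libraries after gel purification. Whether a deposited library joins several samples is not stated. There is therefore no replicate, no test of FC against CON was possible, and every difference between groups below is a difference between 2 libraries.

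Most of the length of such genes is intron. In the brain, many of them encode the adhesion molecules, ion channels, receptors and scaffolds from which synapses are built, and an RNA polymerase needs hours to cross one of them. Acetylation of the H4 tail neutralises lysine charge, loosens contacts between nucleosomes and is read by bromodomain proteins, and H4K5ac is found at promoters and through the bodies of transcribed genes. Some very long genes also carry alternative promoters deep inside the body, so that a short isoform uses only the far part of the gene.

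After removal of repeated reads, so that each 5' position and strand counted once, the libraries held between 11516839 (FC IgG-IP) and 38243819 (FC input) autosomal reads. Density is given as RPKM, reads per kb of called sequence and per 1000000 such reads. The median very long gene held 6498 reads in the FC and 8161 in the CON H4K5ac-ChIP library, and 2244 and 2706 in IgG-IP. All 503 genes held at least 10 reads in every library. The very long genes were poorer in G and C than the genes of 30 to 100 kb, with medians of 41.1% and 43.8%. The input libraries of the groups differed with base composition: across the 503 genes, the FC over CON input ratio followed GC content with a rank correlation of 0.99. The tissue label could not be checked by marker expression in these libraries. In whole hippocampus, fewer cells that carry the mark and less of the mark per cell cannot be told apart.

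At the start of the gene, the promoter's base composition was one feature that the length rule did not use. The 300 bases upstream of the TSS held a median of 15 CpG dinucleotides in both classes, and 63.2% of the very long genes had 10 or more, against 66.3% of the genes of 30 to 100 kb. Within 2 kb of the TSS, the H4K5ac-ChIP over IgG-IP ratio of the very long genes had a median log2 of 0.72 in FC and 0.68 in CON, over the 469 and 493 genes with 10 reads in both libraries. The 318 very long genes with 10 or more upstream CpG had medians of 0.80 and 0.78, the 131 genes with 3 to 9 had 0.53 and 0.55, and the 54 genes with 0 to 2 had 0.45 and 0.41. With input as the control the medians were 0.45, 0.29 and 0.40 in FC and 0.65, 0.43 and 0.52 in CON, in the same sequence of groups, whose sizes are given before the minimum of 10 reads. The genes with 10 or more CpG were highest with either control, whereas the lowest were those with 0 to 2 over IgG-IP and those with 3 to 9 over input.

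The 300 bases upstream of the annotated TSS are shown for the genes with the highest and the lowest H4K5ac-ChIP to IgG-IP ratio within 2 kb of the TSS, averaged over the groups, read 5′ to 3′ on the strand of the gene, with each CpG in capitals. Apbb2, which encodes an adaptor that binds the amyloid precursor protein, and Ank2, which encodes the membrane scaffold ankyrin-B, had the highest means of the ratios in FC and CON. Myo3a, a myosin of sensory hair cells, and Agbl1, a member of the carboxypeptidase family that trims glutamates from tubulin, had the lowest means. In a single group the ratios of other genes could be higher.
Apbb2 (chr5:67010068-67010367, mm9, minus strand, 20 CpG): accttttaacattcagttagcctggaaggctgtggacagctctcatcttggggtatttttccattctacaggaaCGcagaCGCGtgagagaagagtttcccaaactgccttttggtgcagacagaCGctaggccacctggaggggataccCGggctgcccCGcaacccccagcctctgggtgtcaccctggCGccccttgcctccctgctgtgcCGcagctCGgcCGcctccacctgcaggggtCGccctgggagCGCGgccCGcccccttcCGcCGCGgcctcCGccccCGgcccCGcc
Ank2 (chr3:127111950-127112249, mm9, minus strand, 3 CpG): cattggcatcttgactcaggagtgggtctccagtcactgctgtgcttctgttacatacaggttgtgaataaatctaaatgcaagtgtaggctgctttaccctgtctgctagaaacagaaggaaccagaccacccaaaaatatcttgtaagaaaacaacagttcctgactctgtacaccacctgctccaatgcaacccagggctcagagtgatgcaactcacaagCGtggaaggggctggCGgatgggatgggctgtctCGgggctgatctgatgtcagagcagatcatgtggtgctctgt
Myo3a (chr2:22148830-22149129, mm9, plus strand, 12 CpG): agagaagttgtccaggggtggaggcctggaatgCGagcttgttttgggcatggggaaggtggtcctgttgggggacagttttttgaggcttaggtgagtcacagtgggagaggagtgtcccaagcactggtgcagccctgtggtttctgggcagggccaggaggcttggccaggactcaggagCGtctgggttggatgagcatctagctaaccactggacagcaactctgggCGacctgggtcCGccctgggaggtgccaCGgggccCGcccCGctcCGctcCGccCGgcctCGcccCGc
Agbl1 (chr7:83462658-83462957, mm9, plus strand, 0 CpG): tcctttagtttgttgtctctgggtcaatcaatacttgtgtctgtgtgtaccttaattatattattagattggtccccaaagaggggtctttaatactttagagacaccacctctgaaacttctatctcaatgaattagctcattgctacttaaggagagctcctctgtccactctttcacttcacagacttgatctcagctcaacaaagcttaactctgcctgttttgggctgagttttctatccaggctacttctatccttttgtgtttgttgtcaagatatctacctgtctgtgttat

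Within 2 kb of its TSS, Apbb2 held 126 H4K5ac-ChIP and 13 IgG-IP reads in FC and 130 and 14 in CON, for log2 ratios of 2.08 and 2.03. Ank2 held 151 H4K5ac-ChIP and 14 IgG-IP reads in FC and 150 and 19 in CON, for 2.23 and 1.80. The 2 sequences differ widely in composition, with 20 CpG upstream of Apbb2 and 3 upstream of Ank2. Myo3a held 13 H4K5ac-ChIP and 27 IgG-IP reads in FC and 15 and 28 in CON, for -2.25 and -2.09, although 12 CpG lie in the window shown. Agbl1, with no CpG there, held 22 H4K5ac-ChIP and 29 IgG-IP reads in FC and 22 and 35 in CON, for -1.60 and -1.86. The ratios rest on only 13 to 35 IgG-IP reads per gene and group. IgG-IP density in FC was 0.282, 0.304, 0.586 and 0.629 RPKM in Apbb2, Ank2, Myo3a and Agbl1. Input density in FC was 0.346, 0.608, 0.366 and 0.327 RPKM, so in FC the H4K5ac-ChIP of all 4 genes lay nearer to input than to IgG-IP. In CON, input density was 0.417, 0.536, 0.442 and 0.646 RPKM. These 4 genes were chosen by the ratio itself, and a dense CpG stretch is found at both ends of the order.

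Over the whole body, the very long genes carried H4K5ac from well above to well below the IgG-IP library. The log2 of H4K5ac-ChIP density divided by IgG-IP density had a median of 0.22 in FC (quartiles over genes -0.32 to 0.62) and 0.29 in CON (-0.18 to 0.64). In FC, 136 of the 503 genes (27.0%, exact binomial 95% interval 23.2 to 31.1%) reached 1.5-fold over IgG-IP, against 50.8% of the 17377 protein_coding genes with 10 reads in both libraries. In CON, 146 genes (29.0%, 25.1 to 33.2%) did so, against 47.3% of 17654. Over input, 27.4% (FC) and 24.7% (CON) of the very long genes reached 1.5-fold, against 22.0% and 40.9% of all protein_coding genes. The lower share of the very long genes was thus not seen over input in FC. A ratio 1.5-fold under IgG-IP was found for 73 very long genes in FC and 51 in CON, which is 14.5% and 10.1%, against 13% and 13.3% of all protein_coding genes.

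The highest ratio of all belonged to Msra (chr14:64741466-65074740, minus strand), which encodes methionine sulfoxide reductase A, an enzyme that repairs oxidised methionine. Its density was 1.36 in FC and 1.35 in CON H4K5ac-ChIP, against 0.413 and 0.451 in IgG-IP and 0.605 and 0.505 in input RPKM. The log2 ratio to IgG-IP was 1.72 in FC (95% counting interval 1.64 to 1.80) and 1.58 in CON (1.51 to 1.64). Dscaml1 (chr9:45235288-45561343), an immunoglobulin-superfamily adhesion molecule of neurons, had 1.30 in FC and 1.14 in CON H4K5ac-ChIP, against 0.410 and 0.433 in IgG-IP and 0.702 and 0.489 in input RPKM. In both genes the H4K5ac-ChIP density of either group lay above every IgG-IP and input value. Tcf4 (chr18:69503800-69847621), a basic helix-loop-helix transcription factor, followed with log2 ratios of 1.54 in FC and 1.46 in CON.

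For the genes named from here on, the log2 ratio to input follows in parentheses where it lay on the other side of a 1.5-fold limit or differed by 1.5-fold or more from the ratio to IgG-IP. The other genes of the 8 with the highest ratios have products of various kinds. Prkca (chr11:107794701-108205242), protein kinase C alpha, had 1.44 in FC and 1.19 in CON. Rere (chr4:149655755-149996075), a transcriptional co-regulator with arginine-glutamic acid repeats, had 1.37 in FC and 1.22 in CON. Apbb2 (chr5:66690100-67010067), already named for its promoter, had 1.34 in FC and 1.23 in CON over its whole body. Nedd4l (chr18:65047410-65377480), a ubiquitin ligase that controls membrane channels, had 1.04 in FC and 1.03 in CON H4K5ac-ChIP, against 0.438 and 0.447 in IgG-IP and 0.623 and 0.471 in input RPKM. Snd1 (chr6:28425139-28885162), a co-activator and RNA-binding nuclease, had 1.22 in FC and 1.23 in CON. All 8 genes were also above input in both groups, with log2 ratios between 0.74 and 1.41. Their lengths, from 320.0 to 460.0 kb, were below the median of all very long genes in every case but Snd1.

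At the other end, H4K5ac-ChIP lay under IgG-IP. Skint6 (chr4:112477221-112959578) and Skint5 (chr4:113150496-113672108) belong to a family expressed in skin and thymus. Skint6 had 0.0655 in FC and 0.0519 in CON H4K5ac-ChIP, against 0.421 and 0.391 in IgG-IP and 0.187 and 0.353 in input RPKM, so that H4K5ac-ChIP was below both controls in both groups. Its log2 ratio to IgG-IP was -2.68 in FC (95% counting interval -2.80 to -2.57) and -2.91 in CON (-3.03 to -2.80), with -1.51 over input in FC, and that of Skint5 was -2.65 in FC (-1.42 over input) and -2.94 in CON. Slc25a21 (chr12:57813621-58298459), a mitochondrial carrier, had -1.52 in FC and -1.53 in CON, and Myo3a (chr2:22149130-22473772) had -1.50 in FC (-0.90 over input) and -1.48 in CON. Cpa6 (chr1:10314801-10710026), a secreted carboxypeptidase, had -1.45 in FC and -1.33 in CON, and Pkhd1 (chr1:20047860-20608145), the fibrocystin of kidney and bile duct cilia, had -1.31 in FC and -1.33 in CON. In these last 4 genes the IgG-IP density was between 0.372 and 0.484 RPKM, close to the median of 0.439 (FC) and 0.446 (CON) of all very long genes.

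BB287469 (chr12:88833274-89135166) and Gm10406 (chr14:7568221-8002264) were also among the 8 lowest, with -1.94 in FC and -2.00 in CON and with -1.48 in FC and -1.45 in CON. Few reads were placed in either of them in any library: IgG-IP density was 0.147 and 0.134 RPKM in BB287469 and 0.0588 and 0.0650 in Gm10406. The mapping that the authors ran reported reads with several placements. With reads of a mapping score of 20 or more only, the log2 ratios in FC and CON were -2.99 and -3.17 for Skint6, -3.03 and -3.25 for Skint5, -2.05 and -2.05 for BB287469 and -1.43 and -1.44 for Gm10406. All 4 genes stayed low against IgG-IP. Genes with near-identical copies can share reads, so these values are uncertain, and the part of multiple placement in them was not tested further.

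**Figure D1:**
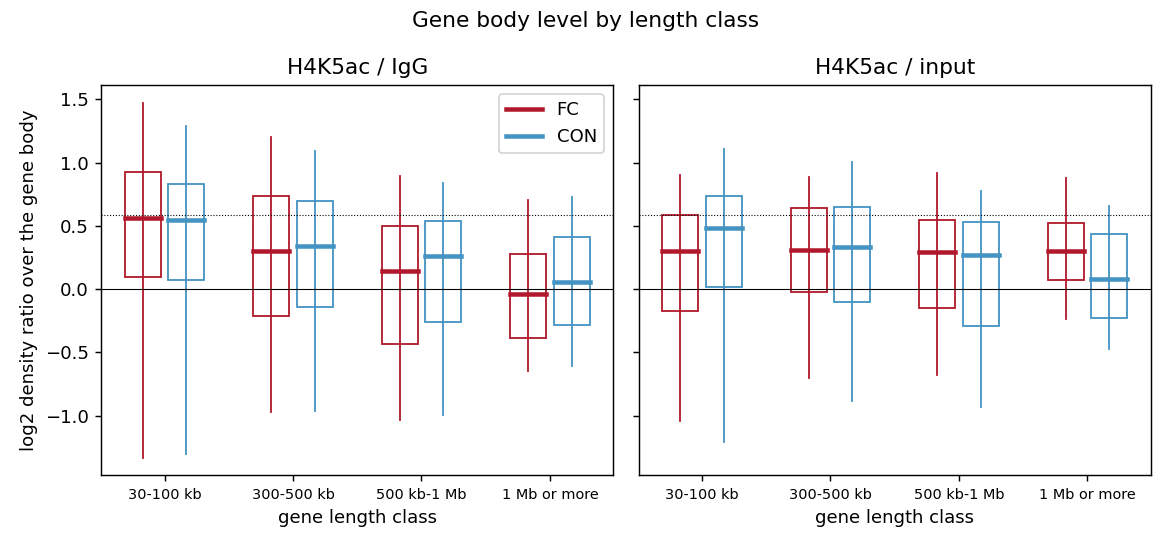
H4K5ac-ChIP density as a log2 ratio to IgG-IP (left) and to input (right) across the gene body, by gene length class, in FC (red) and CON (blue). The thick line is the median, the box the range between the quartiles and the thin line the 5th to 95th percentile of genes, and the dotted line marks 1.5-fold. Over IgG-IP the medians fall from 0.56 (FC) and 0.54 (CON) at 30 to 100 kb to -0.042 and 0.058 at 1 Mb or more, and over input the CON medians fall from 0.49 to 0.079 while the FC medians stay between 0.29 and 0.31.

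The median ratio to IgG-IP was lower in each longer class. In FC the median log2 ratio was 0.31 for the 315 genes of 300 to 500 kb, 0.14 for the 140 genes of 500 kb to 1 Mb and -0.042 for the 48 genes of 1 Mb or more, with a 95% order-statistic interval of -0.33 to 0.12 over those genes. The CON medians were 0.34, 0.26 and 0.058. Over input the medians of these 3 classes were 0.31, 0.29 and 0.30 in FC and 0.34, 0.27 and 0.079 in CON, so the lower level of longer genes was seen over input in CON but not in FC. Among the 48 longest genes, 6 reached 1.5-fold over IgG-IP in FC and 6 in CON, and 11 and 5 did so over input. The rank correlation of length and ratio over the 503 genes was weak, at -0.16 in FC and -0.13 in CON.

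Against genes of 30 to 100 kb, the very long genes were lower over IgG-IP by 0.34 in FC and 0.26 in CON (difference of median log2 ratios -0.34 and -0.26). In pairs made of 1 gene of each class, the very long gene was the higher one in 36.7% of pairs in FC and 39.6% in CON. The choice of control library mattered. Over input, the difference was -0.19 in CON and close to 0 in FC, with both FC medians at 0.30. Within strata of 1% of GC content, the classes differed over IgG-IP by -0.17 in FC and -0.13 in CON, with the very long genes lower in 11 of 15 strata in each group, and the difference over input was -0.091 and -0.11.

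Base composition went with these values to a different degree in each library. Across the 503 genes, the rank correlation of GC content with the H4K5ac-ChIP to IgG-IP ratio reached 0.60 in FC and 0.50 in CON, and with H4K5ac-ChIP over input it was -0.13 and 0.43. IgG-IP over input, which holds no H4K5ac antibody, gave -0.97 in FC and -0.61 in CON. The genes nevertheless stood in nearly the same order in both groups, with a rank correlation of 0.98 between the FC and CON ratios to IgG-IP and 0.80 between the ratios to input. These correlations are across genes of shared libraries and are given as descriptions.

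Each gene was also set against its own surroundings, the stretch of 10 to 110 kb beyond either end that holds no annotated gene, in the same library. By this measure the very long genes had the higher median. The H4K5ac-ChIP body over flank ratio had a median log2 of 0.67 in FC and 0.70 in CON for the 482 very long genes with at least 30 kb of flank, against 0.42 and 0.47 for 3853 genes of 30 to 100 kb. The body was denser than its flanks in 430 of the 482 very long genes in FC and 434 in CON. Of the 3853 genes of 30 to 100 kb, 2972 and 3021 had the denser body. The very long gene was the higher one in 61.1% of pairs in FC and 61.3% in CON.

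The control libraries showed a much smaller contrast, though mostly of the same sign. The body was the denser side in 318 of 483 (FC) and 365 of 484 (CON) very long genes in IgG-IP. In input it was so in 286 and 357 of 484. IgG-IP body over flank medians of the very long genes were 0.047 in FC and 0.072 in CON, and the input medians were 0.047 and 0.075. GC content was also close between the sides of the ratio, with medians of 41.0% in the body and 41.6% in the flanks. The contrast did not fade with length: for the 48 genes of 1 Mb or more the H4K5ac-ChIP medians were 0.71 in FC and 0.71 in CON, though the ratio to IgG-IP of the same genes was near 0. The order of the length classes thus depended on whether the reference was the IgG-IP library or the neighbouring intergenic sequence.

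**Figure D2:**
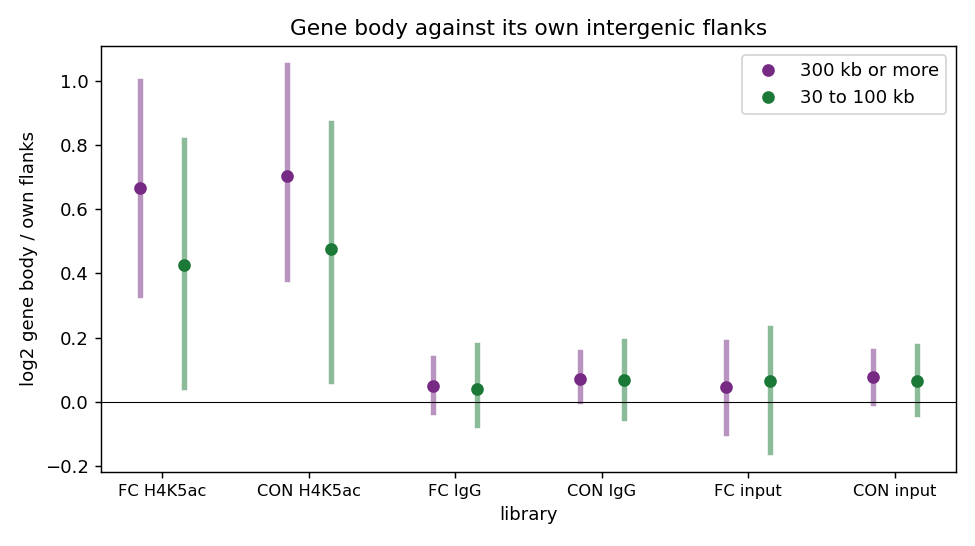
Log2 density of the gene body over its own intergenic flanks in each of the 6 libraries, for genes of 300 kb or more (purple) and of 30 to 100 kb (green). Points are medians and bars span the quartiles of genes. The H4K5ac-ChIP medians of the very long genes are 0.67 and 0.70, and all IgG-IP and input medians lie between 0.041 and 0.075.

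Along the gene, the mean H4K5ac-ChIP density of the very long genes was nearly level from TSS to TTS. Over 20 equal bins it ranged from 0.522 to 0.561 RPKM in FC and from 0.547 to 0.571 in CON, with the highest value in bin 1 in both groups. The start (bins 1 and 2) exceeded the middle (bins 9 to 12) by 0.051 in FC and 0.024 in CON on the log2 scale, and the end (bins 19 and 20) exceeded the middle by 0.064 and 0.031 in the mean profile. Gene by gene the end did not stand above the middle, with a median log2 of -0.0077 in FC and -0.025 in CON. The end was the higher of the pair in 247 and 240 of 500 genes. The IgG-IP profile stayed between 0.434 and 0.452 RPKM. FC input showed start and end contrasts of 0.053 and 0.14, the first near that of FC H4K5ac-ChIP and the second larger, whereas CON input showed 0.0011 and 0.023. As a ratio to input, the end over the middle was -0.076 in FC and 0.0079 in CON on the log2 scale.

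Genes of 30 to 100 kb had a higher start relative to IgG-IP. Their H4K5ac-ChIP over IgG-IP ratio of mean densities was 1.76 in bin 1 and 1.44 in the middle in FC, and 1.60 and 1.39 in CON. In the very long genes the same ratio was 1.29 against 1.19 in FC and 1.29 against 1.24 in CON. IgG-IP density itself was low in bin 1 of the shorter class, at 0.374 RPKM against 0.416 in the middle in FC and 0.380 against 0.428 in CON, whereas in the very long genes it was 0.437 against 0.441 and 0.444 against 0.445. A bin of a very long gene is several times wider than one of a gene of 30 to 100 kb, so fixed distances were used as well.

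In the first 5 kb after the TSS the very long genes had a mean of 0.627 RPKM in FC and 0.608 in CON, close to the 0.633 and 0.610 of genes of 30 to 100 kb. As gene medians of the log2 ratio within 2 kb of the TSS, the very long genes were lower, with a difference from the genes of 30 to 100 kb of -0.29 in FC and -0.21 in CON over IgG-IP, and of -0.18 and -0.19 over input. In the mean density from 5 to 30 kb they had 0.545 and 0.564, below the 0.598 and 0.595 of the shorter class. From 30 to 100 kb the means were 0.529 and 0.550, and from 100 to 300 kb 0.528 and 0.550. Most of the decline lay within the first 30 kb. The density 100 to 300 kb into the gene was 0.969 (FC) and 0.975 (CON) of that at 5 to 30 kb. As a ratio to IgG-IP, the first 5 kb stood at 1.51 and 1.45 and the 100 to 300 kb stretch at 1.20 and 1.24, and as a ratio to input at 1.33 and 1.38 and at 1.253 and 1.24.

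**Figure D3:**
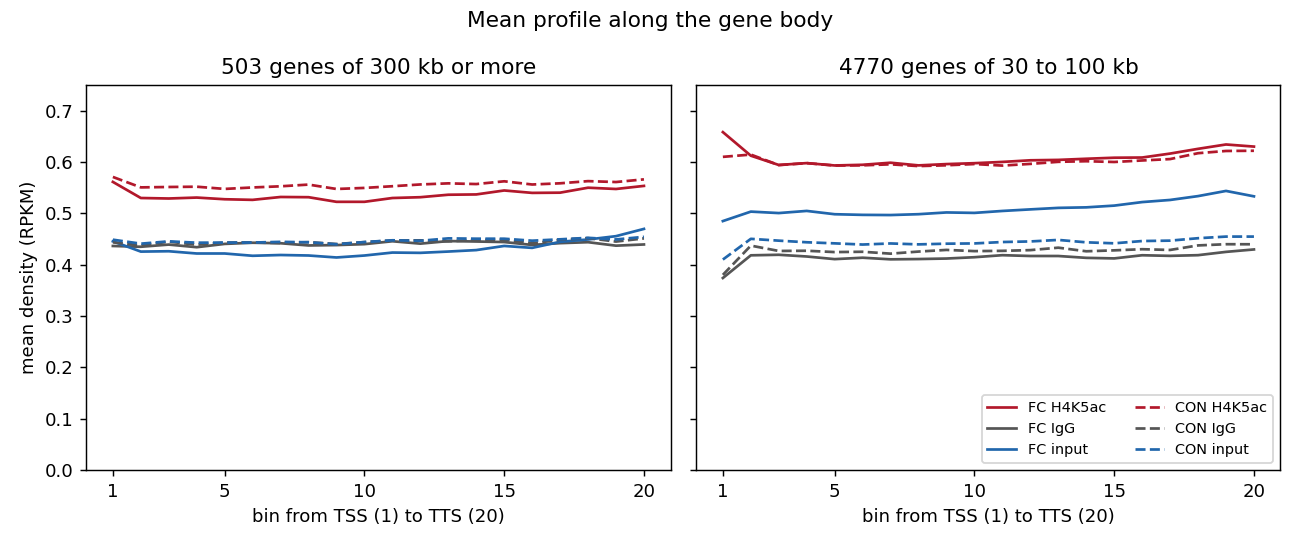
Mean density in RPKM in 20 equal bins from TSS to TTS for genes of 300 kb or more (left) and of 30 to 100 kb (right), for H4K5ac-ChIP (red), IgG-IP (grey) and input (blue) of FC (solid) and CON (dashed). In the very long genes the H4K5ac-ChIP lines stay between 0.522 and 0.571 RPKM, above IgG-IP at every bin, and the FC input of the shorter class lies above its CON input.

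A level mean hid genes that were far from level. Single genes differed from start to middle in both directions, and 10 of them were 2-fold or more higher at the start in FC and 7 2-fold or more lower. In CON these counts were 9 and 7. Among the genes of 30 to 100 kb they were 311 and 105 of 4726 in FC and 286 and 108 of 4722 in CON. That is a larger share in both directions, in bins that hold fewer reads. The start was the higher side in 289 genes in FC and 274 in CON, of 500 with called sequence in all the bins used. In input these counts were 295 and 251, and in IgG-IP 223 and 230. In the shorter class the start was higher in H4K5ac-ChIP in 2707 of 4726 genes in FC and 2501 of 4722 in CON.

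Fam110b had the highest start over middle ratio among genes with at least 10 reads in each part and library. Its density was 0.787 at the start and 0.172 in the middle in FC, and 0.754 and 0.187 in CON. Bin 7 still held 0.923 (FC) and 0.927 (CON) RPKM and bin 9 held 0.201 and 0.215, a sharp edge at the same place in both libraries. Hdac9, which encodes a class II histone deacetylase, had 0.730 at the start and 0.269 in the middle in FC, and 0.868 and 0.328 in CON RPKM. Celf2, an RNA-binding splicing regulator, had 0.997 at the start and 0.400 in the middle in FC, and 1.04 and 0.454 in CON, and Btbd3, which steers the orientation of dendrites, had 0.969 at the start and 0.415 in the middle in FC, and 0.972 and 0.401 in CON. In each of these genes the start was denser than the middle in both libraries. 4930485B16Rik, the remaining gene of the highest 5, had 0.741 at the start and 0.258 in the middle in FC, and 0.780 and 0.266 in CON.

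The opposite shape, low at the annotated start and high further in, was found in Ehbp1, Dpp6, Mcc, Nfib and Rims1. Dpp6, an auxiliary subunit of A-type potassium channels, had 0.251 at the start and 0.608 in the middle in FC, and 0.238 and 0.653 in CON RPKM. Its density stepped from 0.372 (FC) and 0.326 (CON) in bin 5 to 0.715 and 0.711 in bin 6. Nfib, a transcription factor of the nuclear factor I family, had 0.361 at the start and 0.934 in the middle in FC, and 0.446 and 1.01 in CON. Rims1, a scaffold of the presynaptic active zone, had 0.211 at the start and 0.432 in the middle in FC, and 0.237 and 0.513 in CON, and Ehbp1, an adaptor of endocytic trafficking, had 0.220 at the start and 0.588 in the middle in FC, and 0.219 and 0.644 in CON. Mcc had 0.253 at the start and 0.588 in the middle in FC, and 0.256 and 0.697 in CON. The IgG-IP start over middle log2 ratios of these 5 genes lay between -0.39 and 0.24, against -1.56 to -1.04 in H4K5ac-ChIP. Nfib and Ehbp1 have no single transcript of 300 kb, the longest being 216 kb and 280.0 kb.

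**Figure D4:**
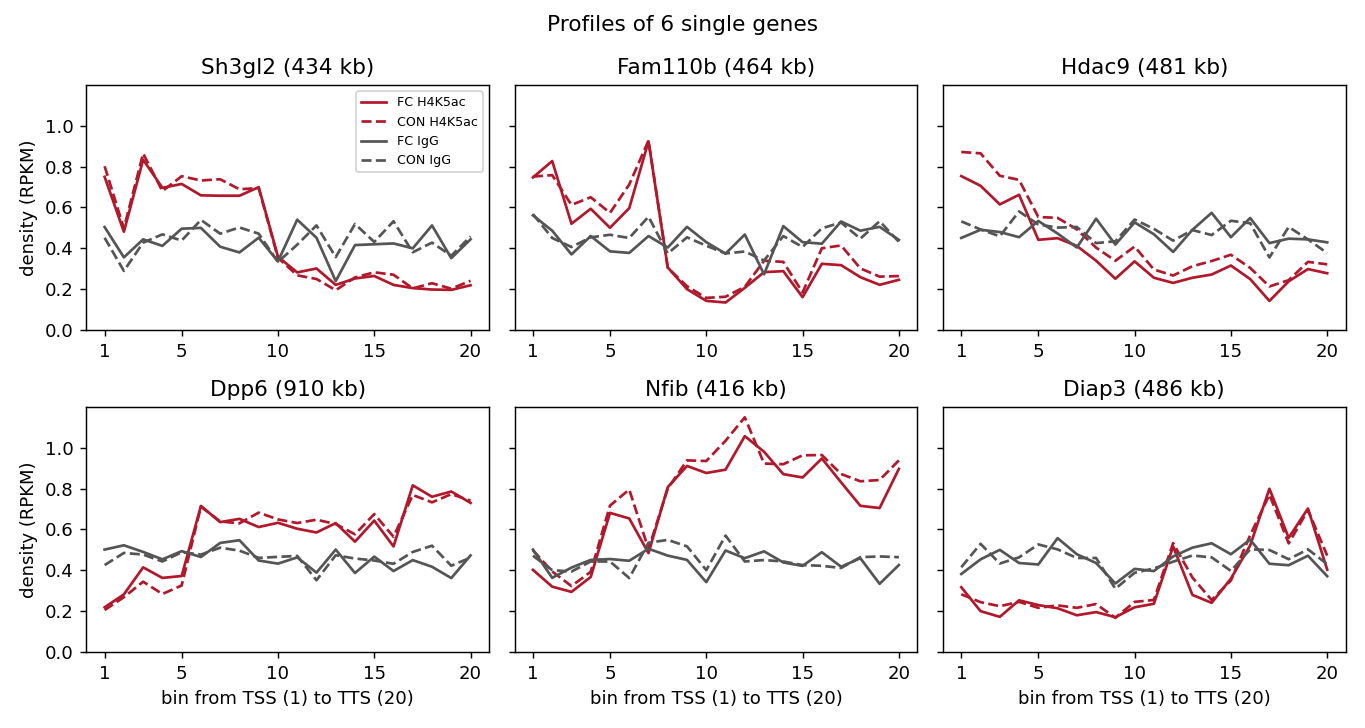
Density in RPKM in 20 bins from TSS to TTS of 6 very long genes, for H4K5ac-ChIP (red) and IgG-IP (grey) of FC (solid) and CON (dashed). Sh3gl2, Fam110b and Hdac9 are high at the start and fall, Dpp6, Nfib and Diap3 are low at the start and rise, and the FC and CON lines of H4K5ac-ChIP follow each other. In Sh3gl2 the density drops from 0.699 (FC) and 0.695 (CON) in bin 9 to 0.359 and 0.354 in bin 10.

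The highest bin of a gene was the same in the FC and CON H4K5ac-ChIP libraries in 308 of 503 genes (61.2%), against 69 (13.7%) in IgG-IP and 84 (16.7%) in input. The libraries differed in depth: the median bin held 323 (FC) and 401 (CON) H4K5ac-ChIP reads, 113 and 136 IgG-IP reads and 382 and 293 input reads. Genes of 30 to 100 kb, whose bins hold far fewer reads, gave 39.1%, 9.14% and 9.69%. The highest bin was bin 1 in 59 very long genes in FC and 55 in CON, against 16 and 21 in IgG-IP and 41 and 25 in input. It lay between bins 3 and 18 in 334 and 342 genes in H4K5ac-ChIP and in 421 and 410 in IgG-IP, so the ends held the highest bin more often in H4K5ac-ChIP than in IgG-IP. The input libraries differed, with 291 genes in FC and 398 in CON, fewer and more than in H4K5ac-ChIP.

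Diap3, a formin that nucleates actin filaments, had the largest inner peak among genes chosen to share their highest bin between the groups, with 0.799 RPKM in bin 17 against a median bin of 0.248 in FC and 0.770 against 0.255 in CON. Gpr98, a very large adhesion receptor of sensory hair cells, peaked in bin 19 at 0.843 and 0.811, with median bins of 0.287 and 0.274. Sh3gl2, which encodes endophilin A1 of synaptic vesicle recycling, peaked in bin 3 at 0.833 and 0.864, and Fam110b in bin 7 at 0.923 and 0.927. The last of the 5, 4921528I01Rik, peaked in bin 8 at 0.621 and 0.587.

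Annotated transcript starts inside the body, counted for any gene on either strand, went with only a slight rise. They can belong to overlapping genes, and starts of the gene's own shorter transcripts were not counted apart. In 446 genes with such a TSS in some of bins 2 to 20, bins with an internal TSS exceeded the other bins of the same gene by a median log2 of 0.047 in FC and 0.044 in CON. The bins with a TSS were the higher ones in 258 genes in FC and 258 in CON. FC input gave 0.045 and CON input 0.023, so FC H4K5ac-ChIP and FC input were nearly alike. Of the 270 genes whose shared highest bin was bin 2 to 20, 57 (21.1%) had an annotated TSS in that bin, against 16.6% of all such bins.

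The very long genes were grouped into 13 lists by the role of their products, which hold 209 of the 503. Across all 503 genes, 125 (24.9%) reached 1.5-fold over IgG-IP in both groups and 50 were 1.5-fold under it in both. Counts of a list are read against these shares, and no set test was made. The 50.8% (FC) and 47.3% (CON) of all protein_coding genes given above count 1 group at a time. Their share in both groups at once can only be equal or lower and was not computed. The lists were written with earlier results of these data known, and nothing is called particular to a list.

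Signalling genes and transcription factors had the highest medians over IgG-IP of the lists in FC. Over input the signalling genes had 0.46 in FC and 0.54 in CON, and the highest list in FC was Ig-domain adhesion and axon guidance with 0.48. Of 25 signalling genes, 11 reached 1.5-fold over IgG-IP in both groups and 0 were 1.5-fold or more under it in both, with a median log2 ratio of 0.56 in FC and 0.58 in CON. Prkca led the list, followed by Prkce, protein kinase C epsilon, with 1.23 in FC (0.59 over input) and 1.17 in CON. At the other end stood Prkg1, the cyclic GMP-dependent kinase of the nitric oxide pathway, with -0.55 in FC and -0.40 in CON, and Alk, a receptor tyrosine kinase, with -0.53 in FC (-0.68 over input) and -0.57 in CON. Kinases thus stood at both ends of the list.

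Among 25 transcription factors and RNA-binding proteins, 10 reached 1.5-fold in both groups and 1 was 1.5-fold or more under it in both, with a median of 0.56 in FC and 0.51 in CON. Behind Tcf4 came Msi2, an RNA-binding protein of the Musashi family, with 1.14 in FC (0.30 over input) and 0.93 in CON. The lowest were Foxp2, a forkhead factor of cortex and striatum, with -0.80 in FC (-0.030 over input) and -0.71 in CON, and Sox6 with -0.43 in FC and -0.29 in CON. The median over input was 0.21 in FC and 0.45 in CON, beside 0.30 in both groups for all very long genes. The median GC content of the list was 42.7%, against 41.1% for all very long genes.

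Of 20 genes for synaptic scaffolds and vesicle release, 5 were called in both groups and 0 were 1.5-fold or more under IgG-IP in both, with a median of 0.42 in FC and 0.51 in CON. Over input their median was 0.46 in FC and 0.51 in CON. Ank3, which encodes the ankyrin-G scaffold of the axon initial segment, had 1.15 in FC and 1.07 in CON, and Ank2 had 1.09 in FC and 1.12 in CON. Cadps2, a regulator of dense-core vesicle release, had -0.76 in FC (-0.50 over input) and -0.55 in CON, and Unc13c, a Munc13 priming factor most abundant in cerebellum, had -0.21 in FC and -0.31 in CON.

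Over IgG-IP, receptors and channels stood nearer the median of all very long genes. Over input, the medians were 0.46 in FC and 0.45 in CON for the glutamate receptors and 0.34 and 0.30 for the channels. All very long genes had 0.30 in both groups over input. Of 13 glutamate receptor genes, 3 were called in both groups, with a median of 0.29 in FC and 0.40 in CON. Grik4, a kainate receptor subunit, had 0.95 in FC (0.27 over input) and 0.81 in CON, and Grin2b, an NMDA receptor subunit, had 0.69 in FC (0.46 over input) and 0.77 in CON. Grm8, a metabotropic receptor, had -0.70 in FC (-0.21 over input) and -0.35 in CON, and the kainate receptor subunit Grik1 had -0.37 in FC and -0.35 in CON, so kainate receptor subunits stood at both ends. Of 25 channel genes, 6 were called, with a median of 0.14 in FC and 0.26 in CON. Itpr1, the inositol trisphosphate receptor of the endoplasmic reticulum, had 1.15 in FC and 1.10 in CON, and Cacna1c, the pore of an L-type calcium channel, had 1.10 in FC (0.50 over input) and 0.97 in CON. At the low end, Dpp10, a relative of Dpp6, had -0.45 in FC and -0.29 in CON.

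Adhesion molecules ranged in FC from -1.13 (Cntnap5c) to 1.67 (Dscaml1). None of 12 neurexin, neuroligin, contactin and contactin-associated genes reached 1.5-fold over IgG-IP in both groups, and their median was -0.49 in FC and -0.31 in CON. Over input the median was 0.12 in FC and -0.20 in CON, positive in FC and negative in CON. This list was also the poorest in GC, with a median of 38.0%, and over their own flanks their H4K5ac-ChIP median was 0.86 in FC and 0.90 in CON, above the 0.67 and 0.70 of all very long genes. Most other lists also lay above the FC value of all very long genes. Over the 13 lists the flank medians ran from 0.37 (FC) and 0.42 (CON) in genes known mainly outside the brain to 1.10 and 1.11 in receptor protein tyrosine phosphatases. Nlgn1, the postsynaptic neuroligin 1, had 0.25 in FC (0.90 over input) and 0.48 in CON. Cntnap5c, a contactin-associated protein, had -1.13 in FC (-0.37 over input) and -0.99 in CON, and Cntn6, a contactin of axons, had -0.79 in FC (0.040 over input) and -0.55 in CON.

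Of 13 cadherin, protocadherin and catenin genes, 0 were called over IgG-IP in both groups and 2 were 1.5-fold or more under it in both, with a median of 0.27 in FC and 0.20 in CON. Over input their median was 0.092 in FC and 0.27 in CON, beside 0.30 in both groups for all very long genes. Pcdh9 had 0.47 in FC (1.27 over input) and 0.69 in CON and Cdh13, a cadherin without a transmembrane segment, had 0.58 in FC and 0.46 in CON. Over input in FC, Cdh13 had 0.045, so the order of these genes in FC depended on the control. The genes 1.5-fold or more under IgG-IP in both groups were Cdh18 with -1.11 in FC (-0.15 over input) and -0.83 in CON (-0.55 over input) and Cdh12 with -1.06 in FC (0.033 over input) and -0.69 in CON (-0.33 over input). Of 25 genes for Ig-domain adhesion and axon guidance, 6 were called in both groups and 3 were 1.5-fold or more under IgG-IP in both, with a median of 0.092 in FC and 0.28 in CON and of 0.48 in FC and 0.31 in CON over input. Dscaml1 was followed by Kirrel3 with 0.96 in FC (0.51 over input) and 0.78 in CON, whereas Fstl5 had -0.94 in FC (-0.16 over input) and -0.68 in CON and the secreted guidance cue Sema3a had -0.93 in FC (-0.021 over input) and -0.68 in CON (-0.55 over input).

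Of 15 teneurins, Csmd proteins and other large surface receptors, 4 were called in both groups, with a median of 0.12 in FC and 0.25 in CON. Over input their median was 0.24 in FC and 0.30 in CON. Sorcs2, a sorting receptor that binds proneurotrophins, had 1.12 in FC (0.20 over input) and 0.93 in CON, and Astn1, an adhesion protein of migrating neurons, had 0.65 in FC and 0.69 in CON. The glypicans Gpc5 and Gpc6, heparan sulfate proteoglycans, had -1.07 in FC (-0.51 over input) and -0.94 in CON and -0.40 in FC and -0.16 in CON. Of 6 receptor protein tyrosine phosphatases, 1 was called, with a median of 0.36 in FC and 0.34 in CON, and of 0.27 in FC and 0.32 in CON over input. Ptprn2 of dense-core vesicles had 0.67 in FC (0.31 over input) and 0.64 in CON and Ptprg had 0.44 in FC and 0.53 in CON, while Ptprk had 0.20 in FC (0.59 over input) and 0.37 in CON and Ptprd, an organiser of synapses, had -0.33 in FC (0.38 over input) and -0.017 in CON.

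Common fragile sites are chromosome regions that break under replication stress and often lie in very long genes. Of 16 such genes, 3 were called in both groups and 0 were 1.5-fold or more under IgG-IP in both, with a median of 0.065 in FC and 0.20 in CON. Over input their median was 0.34 in FC and 0.22 in CON, beside 0.30 in both groups for all very long genes. Auts2 had 0.78 in FC (0.43 over input) and 0.75 in CON and Dab1, the adaptor of reelin signalling, had 0.68 in FC (0.45 over input) and 0.75 in CON. Fhit, a nucleotide hydrolase, had -0.63 in FC (-0.25 over input) and -0.56 in CON, and Dpyd, the first enzyme of pyrimidine breakdown, had -0.50 in FC and -0.41 in CON.

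Genes known mainly from tissues other than brain had the lowest median, -0.62 in FC and -0.60 in CON, and 9 of 16 were 1.5-fold under IgG-IP in both groups, while 2 were 1.5-fold over it. Over input their median was -0.20 in FC and -0.47 in CON, so this list was low against either control. The list is loose, since its highest members, the endosomal exchanger Slc9a9 with 0.86 in FC and 0.76 in CON and Tmtc2 with 0.63 in FC and 0.62 in CON (0.51 over input), are not restricted to such tissues. Pkhd1 and Trdn, the triadin of skeletal and heart muscle with -1.40 in FC (-0.36 over input) and -1.22 in CON, were the lowest of the list. Their H4K5ac-ChIP body over flank ratios were -0.30 and -0.20 for Pkhd1 and -0.076 and 0.028 for Trdn in FC and CON. The median of the whole list over its own flanks was above 0, at 0.37 in FC and 0.42 in CON.

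The 12 genes listed as glial had a median of 0.37 in FC and 0.33 in CON, and 3 were called in both groups. Over input their median was 0.22 in FC and 0.24 in CON, beside 0.30 in both groups for all very long genes. The list is mixed: Dscaml1, its highest member, acts in neurons, and Pard3, a polarity protein of many cells, had 1.09 in FC and 1.06 in CON. Gpc5 was the lowest of the list and Luzp2 had -0.53 in FC (0.24 over input) and -0.37 in CON. Slc4a4, a bicarbonate transporter of astrocytes that was named after its values were seen, had 0.52 in FC and 0.63 in CON (0.55 over input), so genes known from glia stood on both sides of IgG-IP. No cell type was assigned from this list.

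**Figure D5:**
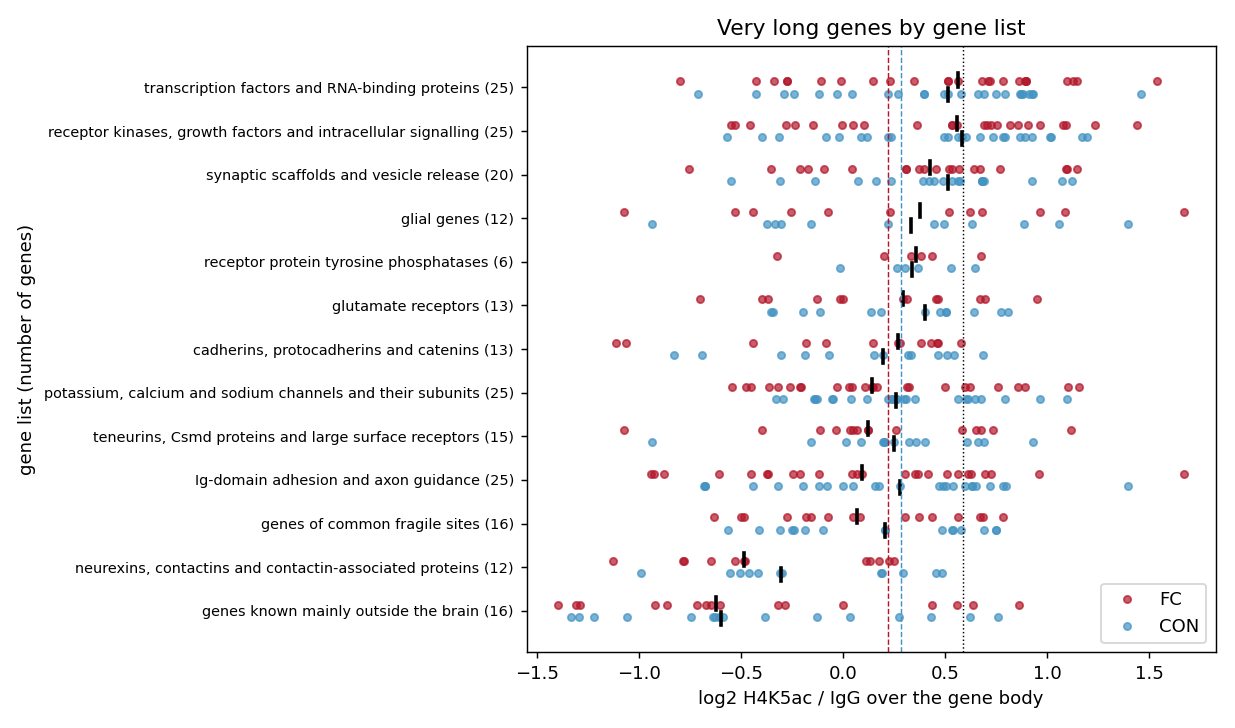
H4K5ac-ChIP density across the gene body as a log2 ratio to IgG-IP for the very long genes of each list, in FC (red) and CON (blue), with 1 point a gene and a black bar at the list's median. Dashed lines mark the medians of all 503 genes, 0.22 in FC and 0.29 in CON, and the dotted line 1.5-fold. The lists overlap widely, with the genes known mainly outside the brain lowest and the transcription factors and signalling genes highest.

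Some genes were also measured by quantitative PCR of their transcripts in the study, which chose them on these same libraries, so their levels are no independent evidence of enrichment. Of these, 6 very long genes are described. Ntrk2 (chr13:58907957-59235331), the receptor of brain-derived neurotrophic factor, had 0.802 in FC and 0.865 in CON H4K5ac-ChIP, against 0.443 and 0.467 in IgG-IP and 0.584 and 0.475 in input RPKM. Akap6 (chr12:53800370-54252002), which anchors protein kinase A, had 0.758 in FC and 0.779 in CON H4K5ac-ChIP, against 0.431 and 0.450 in IgG-IP and 0.424 and 0.445 in input. Both reached 1.5-fold over IgG-IP in both groups, with log2 ratios of 0.86 in FC (0.46 over input) and 0.89 in CON and of 0.81 in FC and 0.79 in CON.

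The other 4 did not reach it in either group. Megf11 (chr9:64233433-64557012), a receptor that spaces retinal neurons, had 0.58 in FC (-0.19 over input) and 0.36 in CON, and Grid1 (chr14:35633011-36396565), an orphan member of the glutamate receptor family, had 0.46 in FC and 0.48 in CON. Ryr3 (chr2:112471512-113057253), a calcium release channel, had 0.31 in FC and 0.26 in CON. Kcnd2 (chr6:21165503-21679805), the pore of A-type potassium channels, had 0.11 in FC (0.80 over input) and 0.35 in CON. Against their own flanks all 6 were above 0 in both groups, from 0.11 for Megf11 in CON to 1.69 for Grid1 in CON. So were 430 (FC) and 434 (CON) of the 482 very long genes with flanks. The FC over CON log2 ratio of their H4K5ac-ChIP densities lay between -0.20 (Kcnd2) and 0.067 (Megf11), with no gene past the 25% used below to call a difference. Of all 503 very long genes, 2 passed it towards FC and 3 towards CON. The study picked its genes by local peaks of FC against control, which density over the whole body does not measure.

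The 10 longest spans of the annotation are Gm20388, Fgfr2, Ptprd, Cntnap2, Lrp1b, Macrod2, Dlg2, Csmd1, Nrxn3 and Fhit, from 4435 to 1612 kb. Gm20388 (chr8:122434741-126869622), with 1.09 in FC (0.18 over input) and 0.88 in CON, is a predicted gene whose span runs over many other genes, and its GC content of 51.1% was the highest of the 10. The annotated span of the growth factor receptor Fgfr2 (chr7:137305965-140315033), with 0.71 in FC (0.15 over input) and 0.57 in CON, likewise contains other genes, 32 of them protein_coding. The remaining 8 genes had lower ratios to IgG-IP.

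Dlg2 (chr7:97650473-99595513), the postsynaptic scaffold PSD-93, was the highest of these 8 over IgG-IP with 0.37 in FC (0.88 over input) and 0.53 in CON, followed by Csmd1 (chr8:15892537-17535586) with 0.26 in FC and 0.40 in CON and Nrxn3 (chr12:89961320-91573375) with 0.23 in FC (0.62 over input) and 0.29 in CON. Macrod2 (chr2:140221045-142218702), a hydrolase of ADP-ribose marks, had 0.081 in FC and 0.20 in CON, and Lrp1b (chr2:40450768-42509118), a receptor of the LDL receptor family, had 0.049 in FC (0.88 over input) and 0.20 in CON. Ptprd (chr4:75587142-77857865) had -0.33 in FC (0.38 over input) and -0.017 in CON, Cntnap2 (chr6:45010060-47251368), which clusters potassium channels along axons, had -0.49 in FC (0.12 over input) and -0.31 in CON, and Fhit (chr14:10382606-11994549) had -0.63 in FC (-0.25 over input) and -0.56 in CON. Against their flanks Ptprd, Lrp1b, Csmd1 and Nrxn3 were more than 2-fold denser, with log2 ratios of 1.02 to 1.18, whereas Fhit, with -0.77 in FC and -0.64 in CON, was less dense than the sequence around it.

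Between the groups, the scaled H4K5ac-ChIP densities of the very long genes were close. Each density is scaled to the autosomal reads of its own library, so a change shared by all autosomes would not show in it. The study's western blots reported more H4K5ac in hippocampus after the memory test than in controls. The FC over CON log2 ratio had a median of -0.064 (quartiles -0.14 to 0.016), and FC was the higher library in 149 of 503 genes. A density at least 25% higher in one library than in the other was found for 2 genes towards FC and 3 towards CON, against 9.06% and 2.73% of the 18431 protein_coding genes with 10 reads in both libraries, most of which are shorter. Of the 4739 genes of 30 to 100 kb, 99 were called towards FC and 31 towards CON, and their median was 0.012.

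The genes called towards FC were Skint6, with 835 reads in FC and 779 in CON for a log2 ratio of 0.34 (95% counting interval 0.19 to 0.48), and Skint5, with 0.33 (0.19 to 0.47), the pair with the lowest ratio to IgG-IP. With reads of a mapping score of 20 or more, 0 genes were called towards FC and 7 towards CON, and with all deposited reads 1 and 9. The next were not called: Dock2, a Rac activator of blood cells and microglia, had 0.25 (0.19 to 0.31) and Dscaml1 had 0.20 (0.16 to 0.23). Towards CON stood Nrg3, a neuregulin that binds ErbB4, with 10365 reads in FC and 15441 in CON, for -0.34 (-0.38 to -0.30). The ephrin receptor Epha3 had -0.33, Cdh12 had -0.32 and Kcnh7, a potassium channel of the Erg type just short of the limit, had -0.32. These 4 genes towards CON had GC contents of 36.1 to 37.4%, and their input ratios lay further on the same side, at -0.69 to -0.60.

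Base composition moved with this ratio in H4K5ac-ChIP as well, with a rank correlation of 0.57 across the 503 genes, -0.61 in IgG-IP and 0.99 in input. The median FC over CON log2 ratio was -0.012 in IgG-IP and -0.090 in input, where genes of 30 to 100 kb had 0.19. Once the IgG-IP ratio was subtracted, the median of the very long genes was -0.047 with 2 and 15 genes called towards FC and CON, where 19% and 7.01% of all protein_coding genes were called. With the input ratio subtracted, the median was 0.025 and the counts were 111 and 53, beside 10.3% and 40.8% of all protein_coding genes, so the direction of the small shift depended on the library taken as reference. Within 1% strata of GC content, the very long genes differed from genes of 30 to 100 kb by -0.022 on the log2 scale, against -0.076 over all genes. The part of base composition in the group difference beyond these values was not tested. Along the gene, the FC over CON ratio of mean H4K5ac-ChIP densities lay between 0.951 and 0.983 in all 20 bins, highest in bin 1.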

How the data were processed

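The deposited files list aligned reads of 6 libraries, 1 per group and antibody, as coordinates, strand and a mapping score. Per the study's methods, H4K5ac-ChIP used a Millipore antibody, fragments were sequenced on a SOLiD instrument, and the authors mapped colour-space reads to mm9 with Bioscope, keeping reads with several placements. The score in the deposited files ran from 4 to 100, and its definition is not given in the sources used here. No read passed a chromosome end of the mm9 reference, and genes came from its GENCODE annotation.

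Reads were counted by 5' position, once per position and strand, on chromosomes 1 to 19, in gene bodies, 20 bins and flanks. Density excludes uncalled bases. Ratios needed 10 reads in each library, and 1.5-fold (over IgG-IP) and a density 25% higher (FC against CON) were called. Intervals on ratios are exact binomial, cover counting error only and treat reads as independent molecules. Intervals on shares of genes (exact binomial) and on medians (order statistics) are over genes. With 1 library per group no p-value was computed. Genes named for start over middle needed 10 reads in each part, a filter added after their values were seen. Python 3.11.15, numpy 2.4.6 and scipy 1.17.1 were used, and the calculations were tested on simulated data. The genes named are the 10 longest, the extremes of each measure, the study's PCR genes and the extremes of each list. Some genes that this rule names are not reported here. For promoter sequences 1 autosome was not considered. The members and lists were chosen with earlier results of these data known.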

Additional observations from a re-analysis of the deposited data

Results flagged for a closer look

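Among the genes named, 7 had ratios of opposite sign in FC and CON with both counting intervals away from 0. The difference was not tested, since each group is 1 library. Over input, Cntnap2 had 0.12 in FC and -0.28 in CON, Dpp10 0.070 and -0.31, Epha3 0.25 and -0.099, and Luzp2 0.24 and -0.20, all positive in FC. Mcc had -0.16 in FC and 0.18 in CON and Megf11 -0.19 and 0.24, both negative in FC. Over IgG-IP, Rims1 had -0.093 in FC and 0.16 in CON.

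Over all 503 genes, 42 had opposite signs over input: 27 were positive in FC, with a median GC content of 37.7%, and 15 were negative in FC, with 45.3%. Over IgG-IP there were 11 such genes, all negative in FC.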

How the results depend on the processing

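No paired analysis was possible because each group and antibody has 1 library. Of the alternative values of the main results, 81 stayed within a set limit and 37 moved. For medians the limit was the 95% interval of the main value, and for counts and shares 1.5 times the main one. For class differences of medians it was a distance set by the intervals of both medians. For start over middle of the mean profile it was a distance set by the interval of the per-gene median. Medians of H4K5ac-ChIP over IgG-IP were 0.33 (FC) and 0.38 (CON) for genes of 200 kb or more and 0.096 (FC) for genes of 500 kb or more, of which 16.5% were called in FC. With input as control the FC median was 0.30, and the class difference was 6.07e-05 in FC and -0.19 in CON, with the share called differing by 2.42 percentage points in FC. The class difference was -0.23 and -0.16 at 200 kb (shares called -13.7 and -10.9 points apart), -0.46 in FC at 500 kb, and -0.17 and -0.13 within GC strata. At 25% over IgG-IP 43.5% (FC) and 47.3% (CON) were called, and at 2-fold 9.74% and 6.76%, with class differences of -11.5 and -8.35 points. Start over middle was -0.0025 as a ratio to input in FC, and at fixed distances (0 to 5 over 100 to 300 kb) 0.25 in FC and 0.14 in CON. With 10 bins, 85 genes peaked in bin 1 in CON. The FC over CON median was -0.047 less IgG-IP and 0.025 less input, and its class difference was -0.022 within GC strata, an alternative chosen after seeing the data. Genes called towards FC numbered 111 less input, 1 with all reads, 0 at a mapping score of 20 or more and 0 at 1.5-fold, and towards CON 15 less IgG-IP, 53 less input, 9, 7 and 0. The shares of all protein_coding genes called less IgG-IP and less input stand beside these counts in the comparison of the groups. The causes were not tested. Of 184 values of named genes, 167 kept their sign over input. A 1.5-fold call was lost over input by 26 and gained by 10 of 92 named genes in FC, and by 4 and 0 in CON. Of values 1.5-fold or more from IgG-IP, 3 changed sign, all in FC: Cdh12 turned from -1.06 to 0.033, Cntn6 from -0.79 to 0.040 and Epha3 from -0.86 to 0.25. Members with 1 single transcript of 300 kb or more, a choice also made after seeing the data, gave medians of 0.20 and 0.27.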

Other observations

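Steps of H4K5ac inside very long genes were described after the single-gene profiles had been seen. For each gene the split of the 20 bins with the largest difference was placed in the FC H4K5ac-ChIP library, with at least 2 bins on either side, and then read at the same place in the other libraries. A step of 1.5-fold was found in 147 of 503 genes in FC, and 121 of these (24.1% of all) also had one in the same direction in CON. The same procedure gave 14 genes in IgG-IP and 13 in input. Genes of 30 to 100 kb, with fewer reads per bin, had such shared steps in 28.2% of genes for H4K5ac-ChIP and in 428 of 4756 genes for IgG-IP. At the shared H4K5ac steps of the very long genes, the median log2 size was 0.81 in FC and 0.77 in CON, whereas input changed by 0.30 and 0.16 in the same direction. Of the genes with a shared H4K5ac step, 10 had an IgG-IP step of that size the same way in both groups, which leaves 111.

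Density rose after the step in 63 of these genes and fell in 48. An annotated TSS lay in a bin beside the step in 31 of the rising genes (49.2%) and in 13 of the falling ones (27.1%), whereas 29.4% and 29.7% of all very long genes had one at the same positions. Here too a TSS of any gene on either strand was counted, so it may belong to an overlapping gene. Trpm3, a cation channel, rose near its end, with 0.474 before and 1.26 after in FC and 0.523 and 1.249 in CON RPKM, and Kcnn2, a calcium-activated potassium channel, rose with 0.275 before and 0.686 after in FC and 0.326 and 0.79 in CON. Nfia, a relative of Nfib, fell near its end, with 0.914 before and 0.324 after in FC and 0.960 and 0.3321 in CON. These genes were picked after their values were seen.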
